A study of Mus musculus with 30 samples.

Results

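Angptl4, Lpl, Cd36, Fabp3, Fabp4, Plin2 and Pdk4 are 7 genes of lipid uptake and storage that are commonly listed as targets of the peroxisome proliferator-activated receptors (PPARs). They were taken by mouse symbol, matched from the Ensembl identifiers of the deposited count files. All 7 of the 7 were found among the 49315 genes of the files, and all 7 passed the filter on low counts that left 19323 genes for testing. Their RNA was measured by sequencing in 30 cultures of fetal testis from C57BL/6 mice, taken on gestational day 14, dissected away from the mesonephros and grown for 24 h on membrane inserts. All cultures held DMSO at 1 in 4000. The 4 groups were vehicle with DMSO alone (n = 15), mono-(2-ethylhexyl) phthalate (MEHP) at 100 µM (n = 6), all-trans retinoic acid (ATRA) at 1 µM (n = 5) and MEHP + ATRA at the same doses (n = 4). MEHP is the monoester formed when the plasticizer di-(2-ethylhexyl) phthalate is hydrolysed, and ATRA is the ligand of the retinoic acid receptors.

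The second number in the library titles, whose meaning the labels do not state, lay below 500 (lower range) or above 500 (upper range). MEHP was sequenced only under upper-range numbers, ATRA and MEHP + ATRA only under lower-range numbers, and vehicle under both (9 lower-range and 6 upper-range libraries). A range term in the model therefore compares each treatment with vehicle of the matching range. MEHP + ATRA against MEHP and the interaction of MEHP and ATRA cross the ranges and depend on that term. The labels do not give the animal or litter behind a library, so p-values measure the spread between these libraries, which may be technical. Library totals ran from 17551454 to 29306917 counts. Marker genes of Sertoli, Leydig, germ and interstitial cells were present in every group, with none at 0 throughout.

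PPARs are nuclear receptors that bind fatty acids and some xenobiotics, among them MEHP, and act on DNA as partners of retinoid X receptors. Their targets in this set cover successive steps of lipid handling. Lipoprotein lipase, encoded by Lpl, frees fatty acids from circulating triglyceride, and ANGPTL4 inhibits that enzyme. CD36 takes up long-chain fatty acids, FABP3 and FABP4 carry them in the cytosol, perilipin 2 coats the lipid droplets that store them, and PDK4 restrains pyruvate oxidation when fatty acids are burned.

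The PPAR and retinoid X receptor pair is known to bind a direct repeat, written here as 2 copies of AGGTCA separated by 1 base. The windows of 250 bases before the RefSeq transcription start (GRCm38.p6) were searched on both strands for the best match to its 12 fixed letters. RefSeq windows were found for 4 of the 7 genes, namely Plin2, Cd36, Fabp3 and Pdk4. Angptl4, the gene that rose most with MEHP, had none, and a link between match and response was not tested. The Plin2 and Cd36 windows are shown because both genes rose with MEHP and their windows held the closest matches, and capitals mark the best match. They are written 5′ to 3′ on the gene's strand.
Plin2, chr4:86670060-86670309, minus strand: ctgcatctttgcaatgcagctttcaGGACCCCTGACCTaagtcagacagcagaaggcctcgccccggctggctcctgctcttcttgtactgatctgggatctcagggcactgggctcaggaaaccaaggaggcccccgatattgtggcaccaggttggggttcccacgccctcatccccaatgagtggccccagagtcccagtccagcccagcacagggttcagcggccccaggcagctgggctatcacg
Cd36, chr5:17835897-17836146, minus strand: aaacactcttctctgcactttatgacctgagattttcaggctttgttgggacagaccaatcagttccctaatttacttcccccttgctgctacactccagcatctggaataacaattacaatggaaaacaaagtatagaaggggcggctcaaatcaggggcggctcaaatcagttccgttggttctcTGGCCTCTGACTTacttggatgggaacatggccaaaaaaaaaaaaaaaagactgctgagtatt

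In Plin2 the best match lay at -225 to -213 from the start, in Cd36 at -63 to -51, and each shared 10 of 12 letters with the repeat on the strand opposite the gene. A match of at least 10 letters was found in 3.24% of 32851 RefSeq windows of this length. The best matches in the Fabp3 and Pdk4 windows shared 8 letters, and a match of at least 8 letters was found in 74.5% of windows. A single exact copy of AGGTCA, searched on both strands, occurred in 14.0% of windows. Plin2 held 1 such copy, inside its best match, and Cd36 held 1 at -228 to -223, apart from its best match. The Cd36 window precedes a start that lies inside the span the files give for the gene. The bases after that start were not found in an annotated Cd36 transcript (GENCODE M21). Those after the Plin2, Fabp3 and Pdk4 starts were found in transcripts of these genes. Exons that the files give for the same gene covered 143 bases of the Fabp3 window and 31 of the Pdk4 window. They covered 1 base in Plin2 and 0 in Cd36. These matches describe letters only and are not measured binding sites.

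Across the 30 libraries the order of levels was read on CPM (counts scaled to library size) divided by exonic length in kilobases, here called FPKM. The order depends on the lengths the files give, among them 823 bases for Fabp3, 4489 for Fabp4 and 10478 for Lpl. Before that division, Lpl had the highest mean CPM of the 7 in every treatment group and both vehicle ranges, at 117 to 140. Fabp3 was highest at 86.3 ± 14.5 FPKM (SD, n = 30), above 97.5% of tested genes, and ranked 1 in every library. Plin2 at 23.1 ± 3.0 FPKM and Angptl4 at 22.9 ± 10.9 FPKM followed, with SDs that include differences between groups. Their order depended on the group. Mean FPKM of Plin2 and Angptl4 were 21.4 and 17.3 in lower-range vehicle, 19.7 and 15.9 in upper-range vehicle, and 23.4 and 13.7 with ATRA. The means were 25.4 and 41.6 with MEHP, and 28.2 and 29.4 with MEHP + ATRA, where the ranges overlapped. Angptl4 ranged from 12.8 to 48.3 FPKM. Its rank moved between 2 and 4, so that it traded places with Plin2 and with Lpl, which stood at 12.4 ± 1.6 FPKM. Cd36 at 5.46 ± 1.17 FPKM and Fabp4 at 4.25 ± 1.17 FPKM overlapped and exchanged ranks 5 and 6. Pdk4 was lowest in every library at 1.22 ± 0.29 FPKM, with 53 to 148 counts, above 30.2% of tested genes. Its values carry the largest counting error of the 7.

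**Figure D1:**
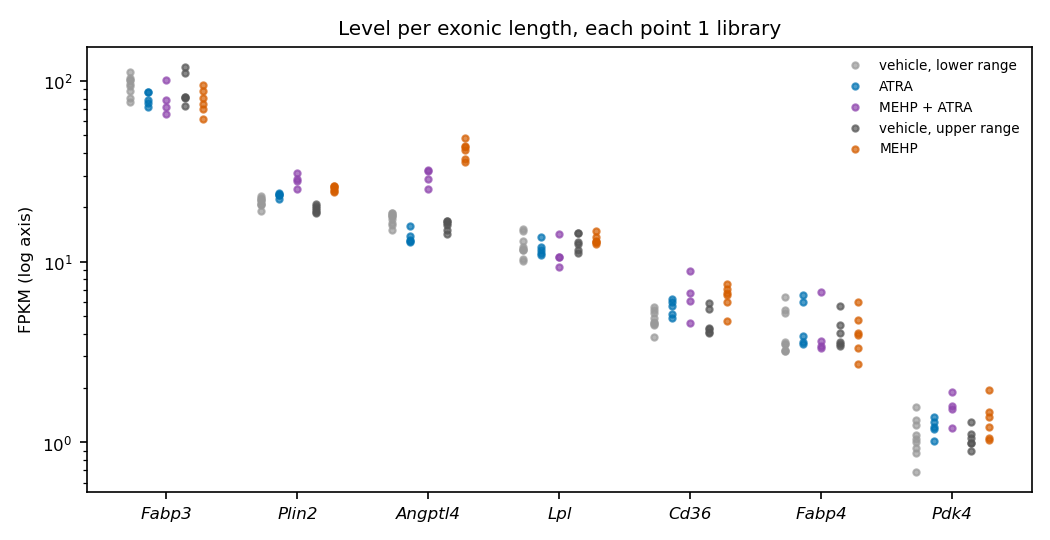
Level of each of the 7 genes per exonic length (FPKM, log axis) in the 30 libraries, with points for libraries by group. Fabp3 lies above and Pdk4 below the other genes in every library, and Angptl4 spreads from 12.8 to 48.3 FPKM.

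MEHP raised 3 of the 7 genes and lowered 0, where 4.72% of all tested genes were called, 2.88% as higher and 1.84% as lower (edgeR quasi-likelihood test, Benjamini-Hochberg adjusted p below 0.05). Angptl4 rose most, followed by Cd36 and Plin2, while Lpl, Fabp3, Fabp4 and Pdk4 did not pass the test. The median log2 fold change of the 7 was 0.36, beside -0.01 over all tested genes. With ATRA, Angptl4 alone of the 7 was called, and it fell. With MEHP + ATRA, Angptl4, Plin2, Cd36 and Pdk4 rose against vehicle. In these bulk cultures, fewer cells of a type and less RNA per cell cannot be told apart.

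**Figure D2:**
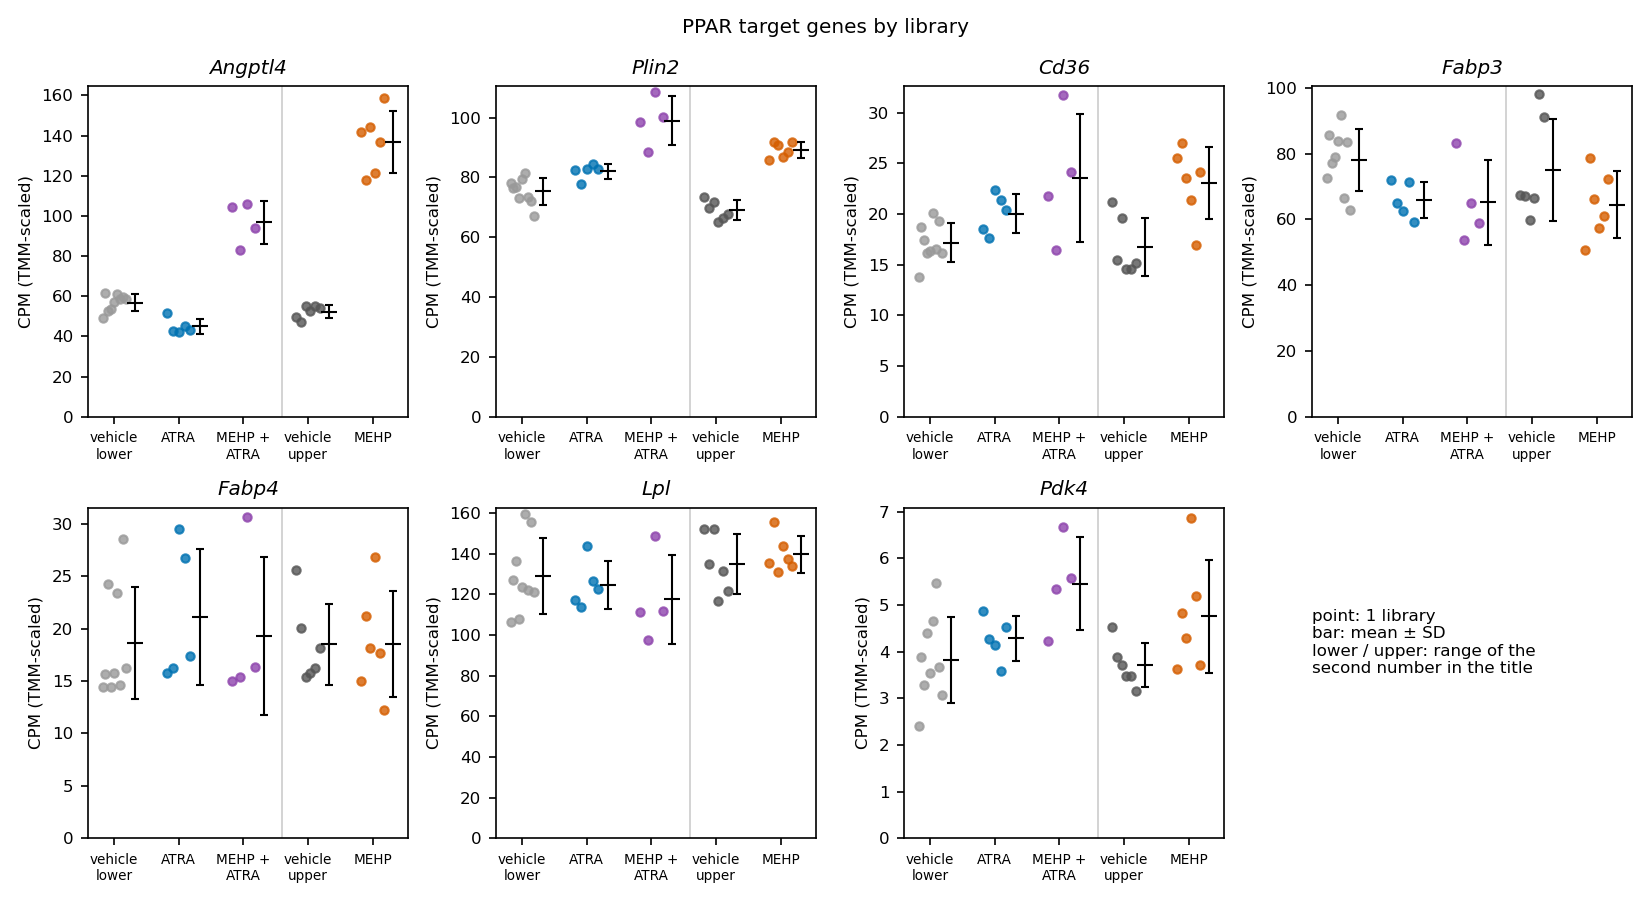
CPM of each of the 7 genes in every library, by group, with vehicle split into the lower and upper range of title numbers; points are libraries and bars are means ± SD. All 6 MEHP libraries lie above all 6 upper-range vehicle libraries for Angptl4 and Plin2. Treated groups overlap with vehicle of their range for Cd36, Fabp3, Fabp4, Lpl and Pdk4.

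Angptl4 (ENSMUSG00000002289, chromosome 17, 33773750 to 33781575, minus strand, as the files give it) encodes a secreted inhibitor of lipoprotein lipase. Its lowest, median and highest CPM were 47.1, 53.5 and 55.4 in the 6 upper-range vehicle libraries and 118, 139 and 159 in the 6 MEHP libraries. All 6 MEHP values lay above all 6 vehicle values. Angptl4 rose 2.61-fold with MEHP, by 1.39 ± 0.07 on the log2 scale (log2 fold change ± SE, adjusted p = 4.4e-14, edgeR). The groups did not overlap for 2 of the 7 genes in this comparison, Angptl4 and Plin2, beside 1.84% of all tested genes.

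ATRA moved Angptl4 the other way. The 9 lower-range vehicle libraries held 49.0, 58.6 and 61.4 CPM (lowest, median and highest), and the 5 ATRA libraries held 51.6, 42.7, 42.0, 45.4 and 43.3 CPM. Of the 5 ATRA libraries, 4 lay below every vehicle library and replicate 1 lay within their range. Angptl4 fell by 0.34 ± 0.07 (log2, adjusted p = 0.000714, edgeR), and it was the 1 gene of the 7 called, where 18.1% of all tested genes were called, 9.06% as higher and 9.03% as lower. The ATRA and vehicle ranges overlapped for all 7 genes, and they did not for 9.49% of all tested genes.

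In the presence of ATRA, MEHP still went with more Angptl4. The 4 MEHP + ATRA libraries held 104, 82.8, 106 and 94.0 CPM, all above the 9 vehicle and the 5 ATRA libraries and below the 6 MEHP libraries. Against vehicle, Angptl4 rose by 0.77 ± 0.07 (log2, adjusted p = 6.85e-10, edgeR). Against ATRA it rose by 1.10 ± 0.08, or 2.15-fold (adjusted p = 7.57e-10, edgeR). Against MEHP it fell by 0.62 ± 0.10 (adjusted p = 0.000121, edgeR), the 1 gene of the 7 called and the 1 whose groups did not overlap, where 8.29% of all tested genes were called (4.06% higher, 4.23% lower) and 12.7% did not overlap. Unlike the call, the overlap between MEHP + ATRA and MEHP was read on CPM across the ranges, without the range term. The vehicle libraries of the upper range were 0.12 ± 0.07 below those of the lower range in log2 (adjusted p = 0.451, edgeR).

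The interaction asks whether the MEHP effect differed with and without ATRA. The effect without ATRA was measured only in the upper range, and that with ATRA only in the lower range. A MEHP effect that differed between the ranges cannot be told apart from an interaction. For Angptl4 it was -0.28 ± 0.11 (log2, 95% interval -0.51 to -0.06), with an unadjusted p of 0.0152 and an adjusted p = 0.843 (edgeR). None of the 7 genes was called in the interaction, 1 had an unadjusted p below 0.05, and DESeq2 and limma-voom called 0 of the 7. Over all tested genes 0.0311% were called. The smaller level with both compounds than with MEHP alone was thus called, and a departure from the sum of the separate log2 effects was not.

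Markers of interstitial and Sertoli cells also moved with the treatments. Against vehicle, 2.88% of all tested genes were called higher and 1.84% lower with MEHP. The shares were 9.06% and 9.03% with ATRA, and 14.3% and 14.7% with MEHP + ATRA. The 9 interstitial markers summed to 8611 ± 259.6 CPM in lower-range vehicle (8314 to 9042), 6866 ± 398 CPM with ATRA (6192 to 7218) and 6187 ± 256 CPM with MEHP + ATRA (5805 to 6347), and 1 was called higher and 5 lower in each of these treatments. With MEHP they summed to 7743 ± 593 CPM (6923 to 8354) against 8482 ± 442 CPM in upper-range vehicle (7908 to 9071), with 0 called higher and 1 lower. Of the 10 Sertoli markers, 8 were called higher and 1 lower with ATRA and with MEHP + ATRA, and 4 higher and 1 lower with MEHP. Their sums overlapped between groups, at 1509 to 2300.3 CPM in lower-range vehicle, 1930.3 to 2347 CPM with ATRA, 1847 to 2448 CPM with MEHP + ATRA, 1882 to 2920.03 CPM in upper-range vehicle and 1665 to 2436 CPM with MEHP. Of 7 Leydig and 9 germ cell markers, 0 were called with MEHP by edgeR, DESeq2 or limma-voom. At an unadjusted p below 0.05 in edgeR were 0 Leydig markers and 1 germ cell marker. Of the Leydig markers, 1 was called higher and 1 lower with ATRA, and 1 and 0 with MEHP + ATRA. Of the germ cell markers, 1 was called higher and 0 lower with ATRA, and 1 and 3 with MEHP + ATRA. The part of all these cells in the changes of Angptl4, Plin2 and the other genes was not tested.

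**Figure D3:**
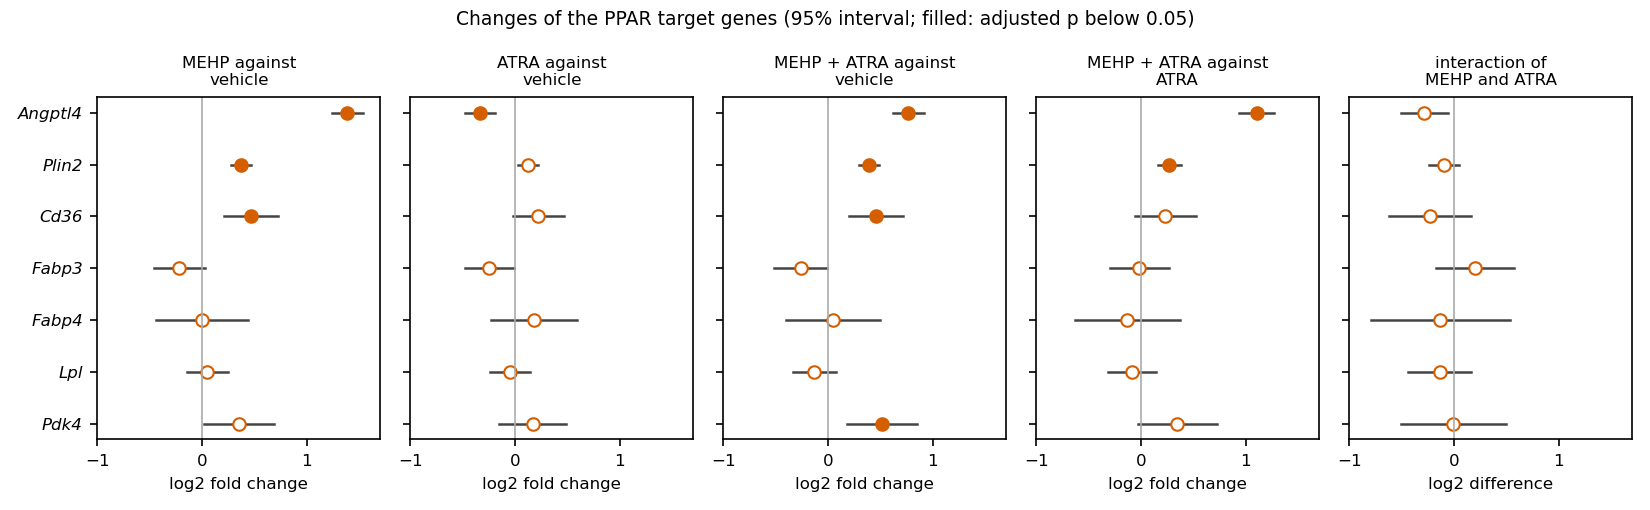
Log2 fold change with its 95% interval for each of the 7 genes in the comparisons, from the model over all 30 libraries; filled points passed the adjusted p threshold of 0.05. Angptl4 stands at 1.39 with MEHP, -0.34 with ATRA and 0.77 with both against vehicle, while the intervals of Fabp4 and Lpl span 0.

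Lpl (ENSMUSG00000015568, chromosome 8, 68880491 to 68907448, plus strand), the lipase that ANGPTL4 inhibits, did not pass the test in any comparison. Its lowest, median and highest CPM were 117, 133 and 152 in upper-range vehicle and 131, 136 and 155 with MEHP. These ranges overlapped, with a log2 difference of 0.05 ± 0.10 (95% interval -0.15 to 0.25, adjusted p = 0.887, edgeR). Lower-range vehicle held 106, 123 and 159.5 CPM. The ATRA libraries held 117, 114, 144, 127 and 122 CPM, and the MEHP + ATRA libraries 111, 97.6, 149 and 112 CPM. The log2 difference from vehicle was -0.05 ± 0.09 with ATRA (interval -0.24 to 0.14) and -0.13 ± 0.10 with MEHP + ATRA (interval -0.34 to 0.07). The latter was -0.26 (adjusted p = 0.0584, edgeR) without MEHP + ATRA replicate 3, the highest of its group.

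Cd36 (ENSMUSG00000002944, chromosome 5, 17781690 to 17888801, minus strand), the fatty acid translocase, was higher with MEHP in the model over all libraries. Upper-range vehicle libraries held 14.6, 15.3 and 21.2 CPM (lowest, median and highest) and MEHP libraries 16.9, 23.9 and 27.0 CPM. Of the 6 MEHP libraries, 5 lay above all vehicle libraries and replicate 5 lay within their range. Cd36 rose by 0.46 ± 0.13 (log2, adjusted p = 0.0253, edgeR), which is 1.38-fold. This call was lost when any of 7 libraries was left out (MEHP replicates 1, 2 and 6 and vehicle replicates 4, 10, 11 and 14), with adjusted p from 0.0556 to 0.0701 and log2 fold changes from 0.415 to 0.45, and in a fit of the compared libraries alone (0.47, adjusted p = 0.0682).

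The lower-range vehicle libraries held 13.8, 16.6 and 20.1 CPM of Cd36. The ATRA libraries held 18.5, 17.6, 22.3, 21.4 and 20.4 CPM, a log2 difference of 0.22 ± 0.12 that did not pass the test (adjusted p = 0.236, edgeR). The MEHP + ATRA libraries held 21.8, 16.5, 31.7 and 24.2 CPM, and 3 of the 4 lay above all vehicle libraries. Cd36 rose by 0.46 ± 0.13 with MEHP + ATRA (adjusted p = 0.00628, edgeR), and by 0.28 with adjusted p = 0.112 without replicate 3 of that group. MEHP + ATRA against ATRA gave 0.23 ± 0.14 (adjusted p = 0.535, edgeR).

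CD36 is also made by endothelial cells, macrophages and adipocytes, and markers of these cells were counted beside it. The summed level of 14 endothelial markers was 526.2 ± 98 CPM with MEHP (349 to 615, n = 6) and 392 ± 79 CPM in upper-range vehicle (307 to 533, n = 6). Of the 14, 4 were called higher with MEHP (Pecam1, Kdr, Cldn5 and Esam) and 0 lower, beside 2.88% and 1.84% of all tested genes. With MEHP + ATRA the sum was 456 ± 47 CPM (405 to 503, n = 4), against 406 ± 57 CPM in lower-range vehicle (312 to 511, n = 9). In that comparison 2 of the 14 were called higher and 2 lower, beside 14.3% and 14.7% of all tested genes. The 12 macrophage markers summed to 84.5 ± 6.5 CPM with MEHP (78.0 to 94.7) and 76.0 ± 16.6 CPM in upper-range vehicle (51.6 to 93.9), with 1 called higher. No marker of these lists was at 0 in all libraries of a group. The part of these cells in the Cd36 result was not tested.

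The 2 cytosolic fatty acid binding proteins did not pass the test in any of the comparisons. Fabp3 (ENSMUSG00000028773, chromosome 4, 130308595 to 130315463, plus strand), best known from heart and muscle, held 59.7, 67.3 and 98.2 CPM in upper-range vehicle and 50.7, 63.7 and 78.7 CPM with MEHP (lowest, median and highest). The log2 difference was -0.22 ± 0.12 (95% interval -0.46 to 0.02, adjusted p = 0.41, edgeR), and 2 of 6 MEHP libraries lay below all vehicle libraries. Lower-range vehicle held 62.9, 79.0 and 91.8 CPM, ATRA libraries 71.8, 65.0, 62.4, 71.3 and 59.1 CPM and MEHP + ATRA libraries 83.3, 53.8, 64.9 and 58.9 CPM. The log2 differences from vehicle were -0.25 ± 0.12 with ATRA (adjusted p = 0.158, edgeR) and -0.26 ± 0.12 with MEHP + ATRA (adjusted p = 0.123, edgeR).

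All 3 estimates for Fabp3 against vehicle were thus below 0 without a call. Limma-voom called the ATRA difference (-0.25, adjusted p = 0.0388) and the MEHP + ATRA difference (-0.30, adjusted p = 0.0214). So did edgeR for ATRA on the compared libraries alone (-0.24, adjusted p = 0.0341), and for MEHP + ATRA without replicate 1 of that group (-0.39, adjusted p = 0.0264). Fabp3 shares 80 exonic bases with the antisense gene Gm10570, which had 0 to 9 counts, and 81 with the antisense gene Zcchc17, which had 567 to 931 counts per library. The strand setting of the counting is not given in the sources used here, so reads in these bases cannot be told apart. The pseudogene Fabp3-ps1 had 8 to 24 counts, beside 964 to 2406 for Fabp3. The summed level of 10 striated muscle markers was 24.5 ± 3.2 CPM with MEHP (21.8 to 30.1) and 33.1 ± 5.1 CPM in upper-range vehicle (26.5 to 40.3). It was 16.9 ± 1.8 CPM with ATRA (15.3 to 19.6), 12.8 ± 1.0 CPM with MEHP + ATRA (11.996 to 14.3) and 30.4 ± 4.6 CPM in lower-range vehicle (26.4 to 38.6), and the part of these cells in the Fabp3 levels was not tested.

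Fabp4 (ENSMUSG00000062515, chromosome 3, 10204088 to 10208576, minus strand), the fatty acid binding protein of adipocytes, macrophages and endothelium, varied most among libraries of a group. Upper-range vehicle held 15.4, 17.2 and 25.5 CPM and MEHP libraries 12.3, 17.9 and 26.9 CPM, which overlapped at both ends. The log2 difference was 0.00 ± 0.21 (interval -0.44 to 0.44, adjusted p = 0.999, edgeR). Lower-range vehicle held 14.4, 15.8 and 28.6 CPM, and ATRA libraries held 15.8, 16.2, 29.5, 26.7 and 17.4 CPM. The 4 MEHP + ATRA libraries held 15.0, 15.4, 30.6 and 16.3 CPM, with replicate 3 well above the other 3. The coefficient of variation within groups was 20.8% to 39.1% for Fabp4, beside 2.94% to 8.26% for Plin2.

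Plin2 (ENSMUSG00000028494, chromosome 4, 86648386 to 86670060, minus strand) encodes the perilipin that coats lipid droplets in most cell types, and its rise with MEHP was small and uniform. Upper-range vehicle libraries held 65.2, 68.8 and 73.6 CPM and MEHP libraries 85.7, 89.6 and 91.8 CPM. All 6 MEHP values lay above all 6 vehicle values. Plin2 rose 1.29-fold, by 0.37 ± 0.05 in log2 (adjusted p = 2.67e-06, edgeR). The call held in each of the 30 fits that left out 1 library, with log2 fold changes from 0.35 to 0.39.

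The lower-range vehicle libraries held 67.0, 76.3 and 81.3 CPM of Plin2, and the ATRA libraries held 82.3, 77.7, 82.9, 84.4 and 82.6 CPM. Of the 5 ATRA libraries, 4 lay above all vehicle libraries, but the difference of 0.12 ± 0.04 (log2) fell just short of the threshold (adjusted p = 0.0533, edgeR). DESeq2 (adjusted p = 0.034) and limma-voom (adjusted p = 0.0199) called it, as did edgeR without MEHP + ATRA replicate 2 (0.12, adjusted p = 0.0454), vehicle replicate 8 (0.13, adjusted p = 0.0497) or vehicle replicate 9 (0.14, adjusted p = 0.0311). The MEHP + ATRA libraries held 98.4, 88.5, 108 and 100.3 CPM, all above every vehicle and every ATRA library. Plin2 rose by 0.39 ± 0.05 against vehicle (adjusted p = 8.99e-08, edgeR) and by 0.27 ± 0.05 against ATRA (adjusted p = 0.00255, edgeR). The latter call was lost with a block on the first title number within ranges (0.19, adjusted p = 0.0711).

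The Plin2 level with both compounds did not pass the test against MEHP alone (0.03 ± 0.07, 95% interval -0.11 to 0.16, adjusted p = 0.902, edgeR). Its interaction was -0.10 ± 0.07 (interval -0.24 to 0.05, adjusted p = 1.0, edgeR). In vehicle, upper-range libraries were lower than lower-range ones by 0.12 ± 0.04 in log2 with an unadjusted p of 0.00743, which did not pass the adjusted test (adjusted p = 0.18, edgeR). That was the 1 unadjusted p below 0.05 among the 7 genes in this comparison. DESeq2 and limma-voom called 0 of the 7 there, and 0.373% of all tested genes were called.

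Pdk4 (ENSMUSG00000019577, chromosome 6, 5483351 to 5496309, minus strand) encodes the kinase that inactivates the pyruvate dehydrogenase complex. Upper-range vehicle held 3.165, 3.601 and 4.53 CPM and MEHP libraries 3.63, 4.57 and 6.87 CPM. Of the 6 MEHP libraries, 3 lay above all vehicle libraries, and the log2 difference of 0.36 ± 0.16 did not pass the test (interval 0.02 to 0.69, adjusted p = 0.292, edgeR). Lower-range vehicle held 2.40, 3.67 and 5.48 CPM, ATRA libraries 4.88, 4.28, 4.15, 3.59 and 4.53 CPM and MEHP + ATRA libraries 4.23, 5.35, 6.66 and 5.58 CPM. ATRA differed from vehicle by 0.17 ± 0.16 (adjusted p = 0.555, edgeR).

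Pdk4 rose by 0.52 ± 0.16 with MEHP + ATRA against vehicle (adjusted p = 0.0165, edgeR), with 2 of 4 libraries above all vehicle libraries. The call was lost without MEHP + ATRA replicate 3 (0.41, adjusted p = 0.0995, edgeR) and with a block on the first title number (0.38, adjusted p = 0.0753 within ranges and 0.0539 over both). Against ATRA the difference was 0.35 ± 0.18 (adjusted p = 0.436, edgeR). The 10 other genes of the pyruvate dehydrogenase switch counted with it, which encode the remaining kinases, the phosphatases and the complex itself, held 0 edgeR calls with MEHP and 0 for MEHP + ATRA against ATRA, and 0 with an unadjusted p below 0.05 in either. DESeq2 called 0 in both, and limma-voom 0 and 1. In the comparison where Pdk4 was called, MEHP + ATRA against vehicle, 3 of the 10 were called higher and 1 lower. With ATRA 2 were called higher and 0 lower. Of all tested genes, 14.3% were called higher and 14.7% lower with MEHP + ATRA, and 9.06% and 9.03% with ATRA. The shares called were 4.72% with MEHP and 3% for MEHP + ATRA against ATRA.

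Counted together, 4 of the 7 genes rose and 0 fell with MEHP + ATRA against vehicle, where 29% of all tested genes were called with 14.3% higher and 14.7% lower. Groups did not overlap for 2 of the 7, beside 17.6% of all tested genes. For MEHP + ATRA against ATRA, 2 of the 7 rose (Angptl4 and Plin2), 0 fell and 2 did not overlap, where 3% were called, 1.38% were lower, 1.62% were higher and 7.15% did not overlap. MEHP + ATRA replicate 3 held the highest value of its group for 6 of the 7 genes. Without it the count against vehicle fell from 4 to 2 of the 7. Angptl4 stood at 0.73 and Plin2 at 0.35, both still called, while Cd36 (0.28, adjusted p = 0.112, edgeR) and Pdk4 (0.41, adjusted p = 0.0995, edgeR) were not.

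Adipocyte markers were present in every group, at unlike levels. Plin1 had means of 41.2 to 60.9 CPM by group and Lipe of 34.4 to 41.9 CPM. Adipoq, which encodes adiponectin, ranged from 5.96 to 14.2 CPM, while the leptin gene Lep had means of 0.0093 to 0.0442 CPM by group. The 8 adipocyte markers summed to 132 ± 9 CPM with MEHP (123 to 143) and 121 ± 9 CPM in upper-range vehicle (104 to 129), and 0 of the 7 tested were called by edgeR, DESeq2 or limma-voom, with 3 at an unadjusted p below 0.05 in edgeR. With ATRA 1 was called higher (Lipe) and 0 lower, where 9.06% of all tested genes were called higher and 9.03% lower. With MEHP + ATRA 1 was called higher (Lipe) and 1 lower (Retn), beside 14.3% and 14.7% of all tested genes. The sums were 116 ± 16 CPM in lower-range vehicle (94.96 to 135), 121 ± 10 CPM with ATRA (109 to 133) and 112 ± 21 CPM with MEHP + ATRA (94.3 to 141). In the last group the highest sum was in replicate 3, the library with the highest Fabp4. Plin1 and Lipe had the largest means of the 8 in every group, so they weigh most in these sums. The cells that made the markers were not identified, and their part in the Fabp4, Lpl and Cd36 levels was not tested.

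The genes whose log2 CPM most resembled each of the 7 over the 30 libraries were named from 13106 compared genes. These are descriptions that share groups, depth and scaling. Angptl4 was most like Ech1, which encodes a peroxisomal and mitochondrial enzyme of unsaturated fatty acid oxidation (Pearson r = 0.95). After group means were taken out, this value was 0.60. Plin2 was most like Aldh9a1 (r = 0.88) and Angpt2 (r = 0.87), with 0.24 and 0.21 after group means were removed.

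The other 5 genes kept most of their likeness within groups. Cd36 was most like the stearoyl-CoA desaturase gene Scd1 (r = 0.82, and 0.72 within groups) and Plin2 (r = 0.77, and 0.61). Fabp3 was most like the epoxide hydrolase gene Ephx1 (r = 0.86, and 0.87) and Slc45a3 (r = 0.80, and 0.79). Fabp4 was most like Adipoq (r = 0.88, and 0.89) and Gpd1, which encodes glycerol-3-phosphate dehydrogenase (r = 0.85, and 0.86). Lpl was most like Cidec, which encodes a lipid droplet protein of fat cells (r = 0.72, and 0.77), and Adipoq (r = 0.70, and 0.81). Pdk4 was most like Ttc9 (r = 0.76, and 0.67) and the Notch ligand gene Dll4 (r = 0.76, and 0.64).

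**Figure D4:**
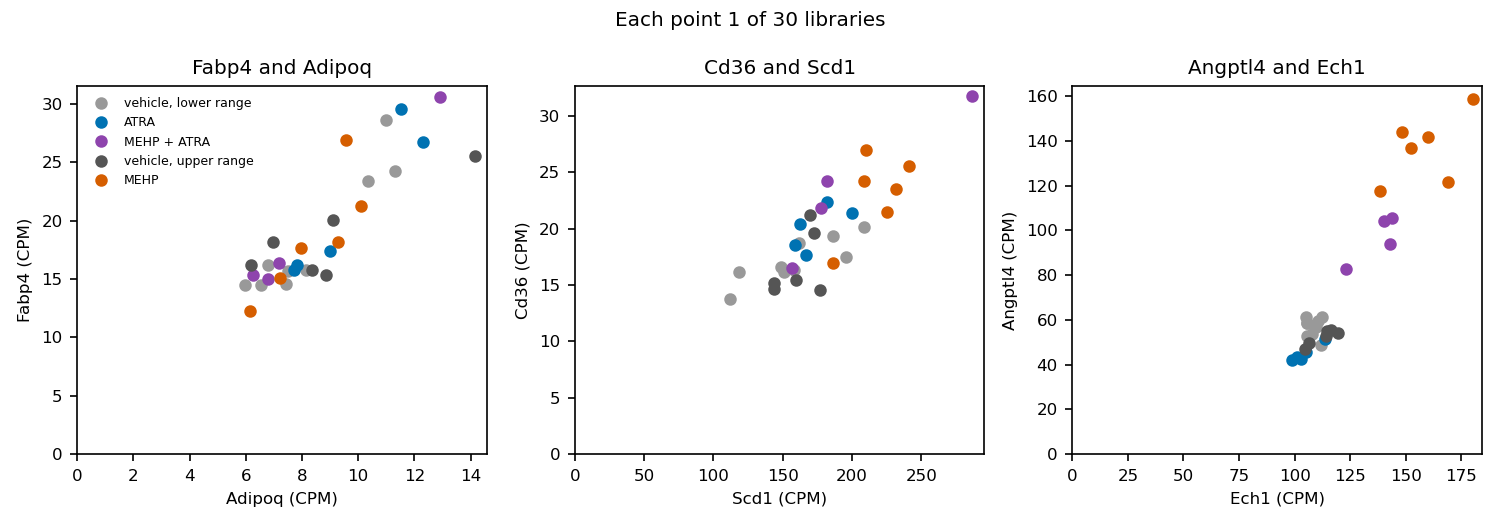
CPM of Fabp4 against Adipoq, Cd36 against Scd1 and Angptl4 against Ech1, linear axes from 0; points are the 30 libraries, coloured by group. The MEHP libraries sit at the upper right for Angptl4 and Ech1, at 118 to 159 CPM of Angptl4, while the groups intermingle for Fabp4 and Adipoq.

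Other genes of the same steps were counted from lists, to be read beside the shares of all tested genes called: 2.88% higher and 1.84% lower with MEHP, 1.62% and 1.38% for MEHP + ATRA against ATRA, and 9.06% and 9.03% with ATRA. Of 16 tested genes of fatty acid uptake and activation, 4 rose and 1 fell with MEHP, and 3 rose and 1 fell for MEHP + ATRA against ATRA. Acsl4 and Acsl3, which encode long-chain acyl-CoA synthetases, rose by 0.70 ± 0.08 and 0.39 ± 0.07 with MEHP. Dbi, the acyl-CoA binding protein, rose by 0.38 ± 0.07 with MEHP and by 0.37 ± 0.08 for MEHP + ATRA against ATRA. These rises were not confined to MEHP. With ATRA, 4 of the 16 were called higher and 3 lower. Acsl4 rose by 0.40 ± 0.07, Acsl3 by 0.36 ± 0.07 and Dbi by 0.19 ± 0.07 with ATRA, all called. Fabp5, a relative of Fabp3 and Fabp4, fell by 0.32 ± 0.09 for MEHP + ATRA against ATRA (adjusted p = 0.0334, edgeR). That call was lost without ATRA replicates 1, 2 or 4 or MEHP + ATRA replicates 1 or 2, with log2 values from -0.32 to -0.23 and adjusted p from 0.0674 to 0.202. It was also lost without the filter on low counts (adjusted p = 0.0834) and with the compared libraries alone (0.0999).

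Of 20 tested genes of lipid droplet storage and lipolysis, 1 rose and 0 fell with MEHP and 0 were called for MEHP + ATRA against ATRA, by edgeR, DESeq2 or limma-voom or at an unadjusted p below 0.05. The gene was Hilpda, a droplet-bound inhibitor of the lipase ATGL, at 0.22 ± 0.06 (adjusted p = 0.0411, edgeR). That call was lost without any of 11 libraries (MEHP replicates 2, 3, 4, 5 and 6, MEHP + ATRA replicate 3 and vehicle replicates 3, 6, 10, 11 and 14), with log2 values from 0.20 to 0.23 and adjusted p up to 0.0999. It was also lost with DESeq2 (adjusted p = 0.0649), limma-voom (0.151), no filter on low counts (0.135), no range term (0.0692) and the compared libraries alone (0.139). Plin2 was thus called with MEHP beside a storage list whose median log2 fold change was 0.01, and the difference between them was not tested. With ATRA, 4 of the 20 storage genes were called higher and 0 lower, beside 9.06% and 9.03% of all tested genes.

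Of 23 tested genes in a list of other classical PPAR targets, mostly enzymes of fatty acid oxidation, 10 rose and 0 fell with MEHP. For MEHP + ATRA against ATRA 6 rose and 0 fell, while with ATRA 1 rose and 2 fell, where 18.1% of all tested genes were called. Cpt1a, the carnitine palmitoyltransferase that admits fatty acids to mitochondria, rose by 0.61 ± 0.07 in log2 with MEHP, and Hadha, a subunit of the trifunctional protein of β-oxidation, by 0.40 ± 0.05. Against ATRA, MEHP + ATRA raised Cpt1a by 0.65 ± 0.08 and the acyl-CoA dehydrogenase gene Acadl by 0.43 ± 0.07. The median log2 fold change of this list with MEHP was 0.10.

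**Figure D5:**
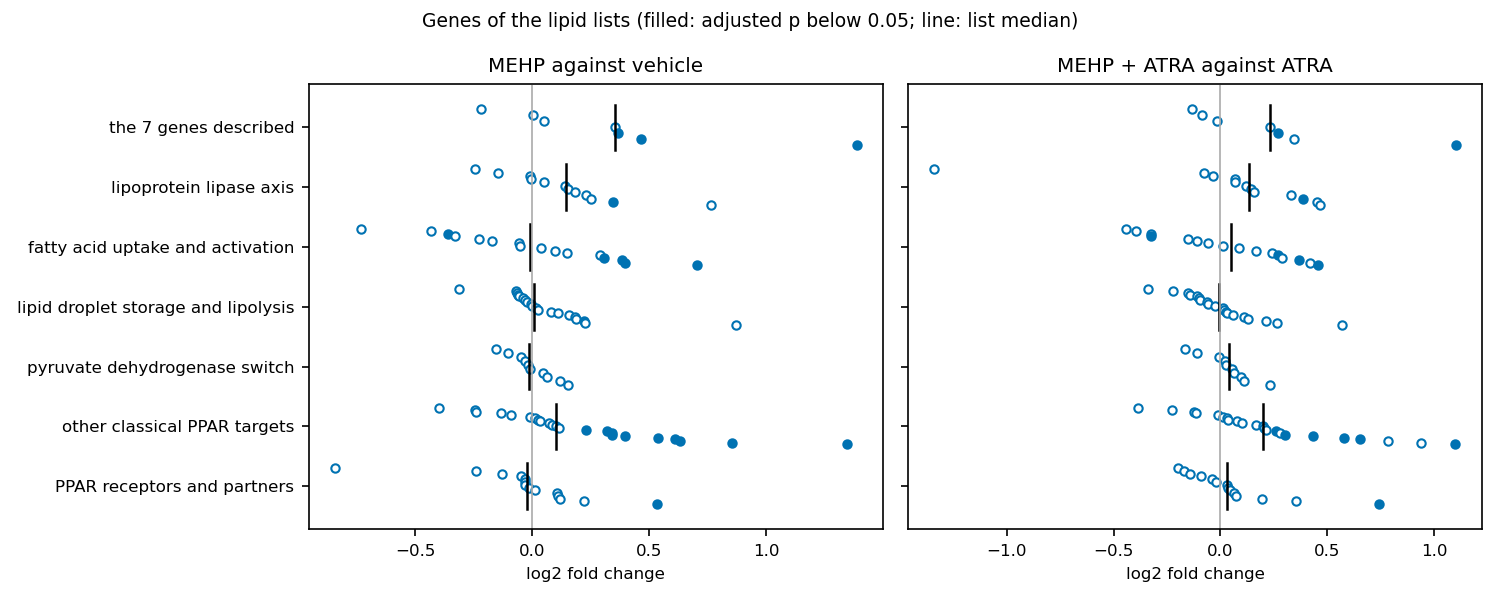
Log2 fold changes of the tested genes of each list with MEHP against vehicle and with MEHP + ATRA against ATRA; points are genes and filled points passed the adjusted p threshold of 0.05, with a line at each list's median. In the list of other classical PPAR targets 10 and 6 genes were called, all higher, and in the pyruvate dehydrogenase list 0 and 0.

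The PPAR genes themselves were not called in the comparisons with vehicle or with ATRA. On the length scale, Ppard stood at 6.94 ± 1.09, Ppara at 2.34 ± 0.38 and Pparg at 0.61 ± 0.12 FPKM in upper-range vehicle. With MEHP, the log2 difference was 0.11 ± 0.10 for Ppard, -0.24 ± 0.12 for Ppara and 0.22 ± 0.22 for Pparg (adjusted p = 0.707, 0.323 and 0.743, edgeR). Of 14 receptors and partners, 1 rose with MEHP and 1 for MEHP + ATRA against ATRA, both times the coactivator gene Ppargc1a. It rose by 0.53 ± 0.15 (adjusted p = 0.038, edgeR) and by 0.74 ± 0.17 (adjusted p = 0.0121, edgeR). The former call was lost without any of 8 libraries (MEHP replicates 1, 3, 4 and 6 and vehicle replicates 3, 4, 10 and 11), with log2 values from 0.42 to 0.54 and adjusted p up to 0.148, and the latter without MEHP + ATRA replicate 1 (0.69, adjusted p = 0.0527). The call with MEHP was also lost with limma-voom (adjusted p = 0.101), no filter on low counts (0.0534) and the compared libraries alone (0.121).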

How the data were processed

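Each library has 1 deposited file of raw, unnormalized counts per gene with the exonic length in bases, as featureCounts lays it out, per the file headers. The submitters' processing notes name STAR 2.5.2b, Trimmomatic 0.36, bcl2fastq 2.20, Subread 1.5.2 with featureCounts, and DESeq2. Tool order, genome build and strand setting were not given in the sources used here. Libraries were made from poly(A)-selected RNA, per the labels' protocols. Of the identifiers, 99.3% had a symbol and 99.3% were in GENCODE M21 (GRCm38), of which 91.36% had the same coordinates; the text gives those of the files. Promoter windows are from RefSeq (GRCm38.p6).

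Groups follow the treatment label. edgeR 4.0.16 (R 4.3.3) kept 19323 genes by filterByExpr (minimum count 10), which held 99.85% to 99.91% of the counts, scaled libraries by TMM (0.975 to 1.02), and fitted the groups plus the range (residual degrees of freedom 25), with a common biological coefficient of variation of 12.7%. Quasi-likelihood F tests were two-sided, with Benjamini-Hochberg adjustment over all genes tested and a threshold of 0.05. The 7 contrasts were the treatments against vehicle, the combination against either compound, the interaction, and the vehicle ranges. CPM are TMM-scaled. Scripts were tested on simulated data. No columns were identical. DESeq2 1.42.0, limma 3.58.1, other scalings and filters, no range term, only the compared libraries, blocks on the first title number and leaving out each library were the alternatives.

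In the upper range, MEHP and vehicle libraries that shared the first title number deviated together (r from 0.35 to 0.65 over 4 numbers). The numbers may pair MEHP with vehicle libraries, and the labels do not explain them. Libraries of unlike numbers were not correlated for comparison, so these values do not show pairing. The blocked fit called 1227 genes with MEHP and changed none of the 7 genes' calls in that comparison.

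The 7 genes and the lists were chosen with earlier results of these data known. Named genes were the 7, up to 3 called genes with the smallest p of each list for MEHP against vehicle and for MEHP + ATRA against ATRA, and the 2 most alike genes by Pearson correlation of log2 CPM above a mean log2 CPM of 1. Some genes that this rule takes are not reported here.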

Additional observations from a re-analysis of the deposited data

Results flagged for a closer look

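In the 4 MEHP + ATRA libraries, Fabp4 was 30.6 CPM in replicate 3, and the gap to the next library took 0.913 of the group's whole range. It was set apart by its distance from the other libraries of its group, in 1 of 35 groups of levels examined; chance sets apart about 1 in 20 such groups. In the same library the 8 adipocyte markers summed to 141 CPM, the highest of the 4. Without it, the log2 difference of Fabp4 between MEHP + ATRA and vehicle was -0.26.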

How the results depend on the processing

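Calls of Angptl4 and Plin2 with MEHP, and of Angptl4 with ATRA, MEHP + ATRA against vehicle, against ATRA and against MEHP, kept direction and call under all 10 alternative settings (9 for MEHP + ATRA against MEHP, which crosses the ranges) and in all 30 fits without 1 library. So did Plin2 with MEHP + ATRA against vehicle. Cd36 with MEHP was lost among the compared libraries alone (0.47, adjusted p = 0.0682), and the losses without single libraries stand in the report. Scalings moved the median of all genes by less than 0.1 in log2. Pdk4, with 53 to 148 counts, and Fabp4, which varied most between libraries, are limited by precision. Beside each change below, the cause was not tested.

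The number of the 7 genes called with ATRA was 1. It was 2 with upper-quartile scaling, DESeq2, a mean CPM of at least 1, no range term and the replicate block over both ranges, and 3 with limma-voom, the replicate block within each range and the compared libraries alone. Leaving out 1 library gave 1 to 2 with ATRA and 2 to 5 with MEHP + ATRA against vehicle, where it was 4.

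Over all genes, the 912 calls with MEHP became 2229 without the range term and 439 with the compared libraries alone. The 3494 with ATRA became 5527 with limma-voom. The 579 for MEHP + ATRA against ATRA became 1656 with limma-voom and ranged from 340 (without MEHP + ATRA replicate 1) to 689 without 1 library. The 1601 for MEHP + ATRA against MEHP became 3181 without the range term. The 6 of the interaction became 12 with DESeq2 and 10 with limma-voom or without the range term, and ranged from 3 (without MEHP + ATRA replicate 2) to 8 without 1 library. The 72 between ranges in vehicle became 337 with DESeq2, 136 with limma-voom, 19 without a filter and 0 with the compared libraries alone (DESeq2 and limma-voom were run on all libraries), and ranged from 10 to 169 without 1 library, lowest without vehicle replicate 14 and highest without vehicle replicate 4.

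In the lower range the first title numbers had correlations of deviations from 0.0832 to 0.472, with 3 of 5 above 0.1 and 2 below. Pairing in the lower range was not taken as shown either, for want of a comparison with libraries of unlike numbers. With a replicate block within each range, MEHP + ATRA against ATRA kept 1 call among the 7 genes instead of 2 (Plin2 0.19, adjusted p = 0.0711), and the interaction 2 over all genes. With a replicate block over both ranges, all-gene calls were 1371 for MEHP + ATRA against ATRA, 3 for the interaction and 42 between ranges. Pdk4 with MEHP + ATRA against vehicle was 0.38 under either replicate block (adjusted p = 0.0753 within ranges and 0.0539 over both). Cd36 with ATRA was called within ranges (0.27, adjusted p = 0.0492), and Plin2 with ATRA under either block (0.16, adjusted p = 0.00775, and 0.14, adjusted p = 0.0212).

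All reversals of sign were in log2 differences without a call. For Plin2, MEHP + ATRA against MEHP was -0.0199 and -0.0001 under the replicate blocks within and over ranges. For Cd36 the same comparison was 0.0022 with RLE, 0.0023 with DESeq2, 0.028 with limma-voom, 0.0008 with a mean CPM of at least 1 and 0.0292 without the range term. Fabp3 was 0.0015 against ATRA without a filter and 0.0187 against MEHP without the range term, both for MEHP + ATRA. Fabp4 with MEHP was -0.003 with RLE, -0.0023 with DESeq2, -0.0946 with limma-voom, -0.0047 without the range term, and -0.0111 and -0.0046 under the replicate blocks. With the block over both ranges, Fabp4 with MEHP + ATRA was -0.0192 against vehicle and -0.0146 against MEHP, and Lpl between ranges was -0.009. The Fabp4 interaction was 0.0718 with limma-voom and 0.0101 under the block within ranges, and Fabp4 between ranges was 0.0414 with limma-voom. The Pdk4 interaction was 0.0019 with RLE, 0.0021 with DESeq2, 0.1337 with limma-voom and 0.015 without the range term.

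Without 1 library, MEHP + ATRA against MEHP ran from -0.0155 to 0.0787 for Plin2, -0.1794 to 0.1316 for Cd36, -0.1773 to 0.0436 for Fabp3 and -0.2571 to 0.1954 for Fabp4. MEHP + ATRA against ATRA ran from -0.1459 to 0.075 for Fabp3, -0.4359 to 0.0319 for Fabp4 and -0.2139 to 0.0004 for Lpl. Fabp4 ran from -0.133 to 0.1165 with MEHP, -0.257 to 0.1657 with MEHP + ATRA against vehicle, -0.436 to 0.028 in the interaction and -0.1283 to 0.0917 between ranges. Pdk4 ran from -0.1085 to 0.1344 in the interaction and -0.1079 to 0.0379 between ranges.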
